A study of Mus musculus with 15 samples.

Results

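Clustered protocadherins were followed through RNA-seq of mouse embryonic stem cells with and without Polycomb proteins. The members were the protein-coding genes whose mouse symbol begins with Pcdha, Pcdhb or Pcdhg followed by the letter or number of a variable isoform, chosen by name and not by any measured value. The rule found 24 of the 38355 genes in the authors' deposited table. Of these, 22 belong to the beta cluster, 1 to the alpha cluster and 1 to the gamma cluster. The authors called 0 of the 24 genes as changed in any of 4 comparisons, and 16 of the 24 had no fold change in any of them.

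There were 15 samples in 5 groups of 3 replicates, which the design text of the series calls biological. The wild types were E14-WT, from E14TG2a cells, and Ezh2-WT, labelled wild type with Ezh2 alleles written as Ezh2[fl/fl]. PRC2, the Polycomb complex that places methyl groups on histone H3 at lysine 27, was disrupted in Ezh2-KO (Ezh2[-/-]) and in Suz12-KO (Suz12[-/-]). Ring1A+B-DKO (Ring1a[-/-]; Ring1b[-/-]) lacks both catalytic subunits of the other main Polycomb complex, PRC1, which attaches ubiquitin to histone H2A. All groups were grown on gelatin in 2i medium, which holds stem cells in the naive pluripotent state with the MEK inhibitor PD0325901, the GSK3 inhibitor CH99021 and LIF. The labels do not say how many clones each line represents, nor the parental lines of Suz12-KO and Ring1A+B-DKO, so differences between lines and effects of the deletions cannot be told apart in comparisons with E14-WT. The table gives 1 log2 fold change and 1 true or false call per gene and comparison, without values per sample, standard errors or p-values, so the spread between replicates and the depth are unknown here. Positive fold changes mean more RNA in the group named first, after the sign of the 3 columns with E14-WT was turned (the grounds stand in the account of the processing). The words rose and fell are kept for genes with a call.

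Clustered protocadherins are cadherin-like adhesion proteins of the cell surface, best known from neurons, where different neurons show different sets of them and matching sets on sister branches lead to self-avoidance. In the alpha and gamma clusters each variable first exon has its own promoter and is spliced to constant exons that all members of that cluster share. The beta genes share no constant exon, and each is a gene of its own. In neurons the choice of promoter depends on CTCF and cohesin, which loop promoters to distant enhancers, and on DNA methylation of the promoters that were not chosen. The C-type members at the ends of the alpha and gamma clusters are expressed more evenly across neurons than the other variable members.

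All 24 members lie on the plus strand of chromosome 18 between 37005203 and 37841873 in GRCm38, with the alpha gene first, the beta genes next and the gamma gene last. The 22 beta genes are each annotated as 1 block of exon sequence of 2588 to 8695 bases. The alpha entry (ENSMUSG00000007440, 37005203 to 37187657) carries the symbol Pcdha11 in GENCODE, but the same symbol stands on 2 identifiers there. RefSeq places Pcdha10 at 37005320 and Pcdha11 at 37010858, so which alpha isoform the entry stands for is uncertain. The gamma entry (ENSMUSG00000023036, 37815079 to 37841873) is named for the C-type isoform Pcdhgc4. Its row stands between genes that start at 37655451 and 37705979, in a table whose neighbouring rows on this chromosome follow the order of their starts in 762 of 768 pairs. It may therefore have covered more of the gamma cluster in Ensembl release 72 than the present entry does. The alpha entry, the only alpha row, may likewise have covered more isoforms then, which could not be checked. Values of either entry cannot be assigned to 1 first exon. Below, Pcdhgc4 is the name of the gamma entry and does not stand for the C-type isoform alone. GENCODE holds 34 further identifiers that fit the name rule, 13 alpha and 21 gamma, among them those of Pcdhac1, Pcdhac2, Pcdhgc3 and Pcdhgc5. These 34 have numbers above the highest in the table and were not analysed here.

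Of the 24 members, 16 had no counted read in any of the 5 groups, and all 16 were beta genes. A missing fold change was read as no read in any of the 6 libraries compared, and a value above or below 0 as reads in the group it favours. Read this way, the authors' deposited table showed no reads in E14-WT for 22 of the 24 members, in Suz12-KO for 21, in Ezh2-WT for 20, in Ezh2-KO for 19 and in Ring1A+B-DKO for 18. Among all protein-coding genes the shares without reads were 34.3%, 32.6%, 35.3%, 33.7% and 27.8% in the same order of groups, so Ring1A+B-DKO had the lowest share there too. Only the gamma entry, Pcdhgc4, and Pcdhb18 had reads in E14-WT. In such bulk samples, fewer expressing cells and less RNA per cell cannot be told apart.

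**Figure D1:**
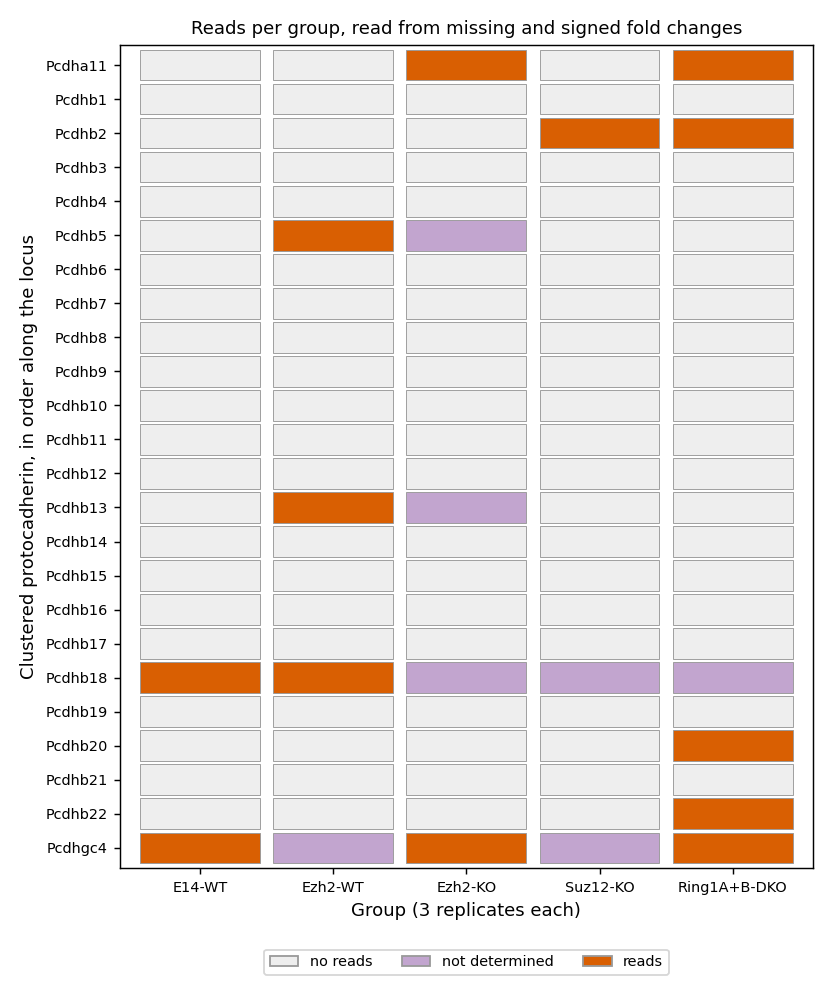
Clustered protocadherins (rows, in order along the locus) in the 5 groups (columns), each cell coloured by whether the group had reads, had none, or could not be determined. The map is mostly grey, with reads in E14-WT for 2 members and in Ring1A+B-DKO for 5.

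In the beta cluster, 16 of 22 genes had no value in any comparison of the authors' deposited table. These were Pcdhb1, Pcdhb3, Pcdhb4, Pcdhb6 to Pcdhb12, Pcdhb14 to Pcdhb17, Pcdhb19 and Pcdhb21. Of the 6 with a value, Pcdhb18 had values in all 4 comparisons, Pcdhb2, Pcdhb5 and Pcdhb13 in 2 and Pcdhb20 and Pcdhb22 in 1. The pattern differed from gene to gene. For Pcdhb2, Pcdhb5, Pcdhb13 and Pcdhb20 it rests on values at or next to the smallest of their kind, as given below. It therefore does not show that their expression differed between groups. Pcdhb2 (37294812 to 37297624) had reads in Suz12-KO and Ring1A+B-DKO and none in the other groups. Pcdhb5 (37320381 to 37323915) and Pcdhb13 (37442500 to 37446209) had reads in Ezh2-WT and none in E14-WT, Suz12-KO or Ring1A+B-DKO, and Ezh2-KO could not be determined. Pcdhb20 (37504264 to 37507822) and Pcdhb22 (37517871 to 37524479) had reads in Ring1A+B-DKO and in no other group. Pcdhb18 (37489465 to 37494505) had reads in both wild-type lines, E14-WT and Ezh2-WT, and Ezh2-KO, Suz12-KO and Ring1A+B-DKO could not be determined. Its 4 values lay from -0.11 to 0.06, each shared with 66 to 717 other genes. They do not show a difference between groups either.

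The alpha entry had reads in Ezh2-KO and Ring1A+B-DKO and none in E14-WT, Ezh2-WT or Suz12-KO. Pcdhgc4 had values in all 4 comparisons, with reads in E14-WT, Ezh2-KO and Ring1A+B-DKO, while Ezh2-WT and Suz12-KO could not be determined. The 4 values of Pcdhgc4 were shared with no other gene of the authors' deposited table. The other 14 of the 18 member values were each shared with further genes, from 5 others for the alpha entry in Ring1A+B-DKO to 717 others for Pcdhb18 in Suz12-KO. Identical values can arise where genes have the same few counts, and 30.6% to 31.4% of all values in each comparison were shared.

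Ezh2-KO against Ezh2-WT, which asks what loss of the methyltransferase subunit does, gave 5 of 24 members a value. The authors called 0 of them, beside 0.177% of all genes with a value, or 32 of 18097. Pcdhgc4 stood at a log2 fold change of 0.19 in the authors' deposited table and the alpha entry at 0.11. Pcdhb5 and Pcdhb13 both stood at -0.07 and Pcdhb18 at -0.10. The 5 values thus lay within 0.2 of 0, inside the range from -0.49 to 0.44 between the 5% and 95% points of all genes. The median of the 5 was -0.07, beside -0.01 over all genes. Here and in the comparisons below, small values without a call do not show that members were unchanged. The alpha entry had reads in Ezh2-KO and none in Ezh2-WT. The 922 genes of that kind had a median of only 0.085 and a largest value of 0.54, and 0 were called.

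Suz12-KO against E14-WT, the comparison for a second PRC2 subunit, gave only 3 members a value, and 0 were called, beside 0.200% of all genes, or 37 of 18498. Pcdhb2 stood at 0.10, Pcdhgc4 at -0.01 and Pcdhb18 at -0.06 in the authors' deposited table. Their median was -0.01, beside -0.03 over all genes. The alpha entry, with reads in Ezh2-KO, had no reads in Suz12-KO, a difference that could not be tested.

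Ring1A+B-DKO against E14-WT, which asks what loss of PRC1 ligases does, gave 6 members a value, more than any other comparison. Among all genes too its share with a value was the largest, at 51.3%. It was 47.2% in Ezh2-KO, 48.2% in Suz12-KO and 48.5% in Ezh2-WT. The authors called 0 of the 6, beside 3.00% of all genes in either direction and 2.38% as higher, or 591 and 469 of 19693. The alpha entry had the largest value of any member, at a log2 fold change of 1.11 in the authors' deposited table. It was the only member value with a size of at least 1, beside 8.10% of all genes at that size in either direction and 6.73% as higher. In Ezh2-KO, Suz12-KO and Ezh2-WT, 0.674%, 0.822% and 2.32% of all genes reached that size, and 0 members did. Pcdhb22 stood at 0.41, Pcdhb2 at 0.18, Pcdhb20 at 0.15, Pcdhgc4 at 0.03 and Pcdhb18 at -0.11. The members' median of 0.17 stood beside 0.07 over all genes, and 5 of the 6 lay above 0. Of those 5, the alpha entry, Pcdhb2, Pcdhb20 and Pcdhb22 had no reads in E14-WT and could only be above 0. The 2 members with reads in E14-WT, Pcdhgc4 and Pcdhb18, had a median of -0.04. Their reads in E14-WT were inferred from values below 0 in comparisons with it, so the choice of this pair leans towards values below 0.

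Between the wild-type lines, Ezh2-WT against E14-WT, 4 members had a value and 0 were called, beside 0.607% of all genes, or 113 of 18604. Pcdhb5 and Pcdhb13 stood at 0.09, Pcdhb18 at 0.06 and Pcdhgc4 at -0.06 in the authors' deposited table. The 3 beta genes lay above 0 and Pcdhgc4 below it, all within 0.1 of 0. This comparison shares the E14-WT libraries with those of Suz12-KO and Ring1A+B-DKO and the Ezh2-WT libraries with that of Ezh2-KO. The values of Pcdhb5 and Pcdhb13 in both comparisons that use Ezh2-WT therefore rest on the same reads in Ezh2-WT.

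**Figure D2:**
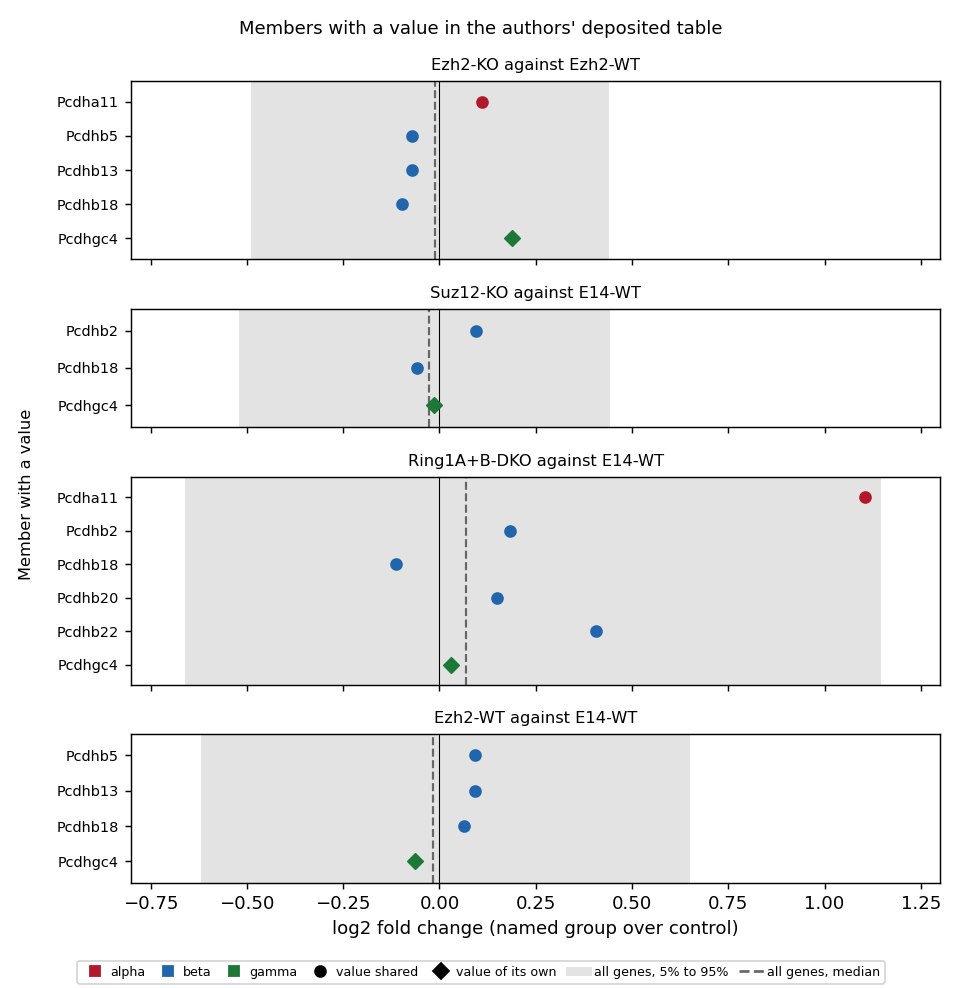
Log2 fold change (named group over control) of each member with a value, 1 panel per comparison, coloured by cluster, with circles for values shared with other genes and diamonds for values of their own. The grey band runs from the 5% to the 95% point of all genes and the dashed line marks their median. Each member lies inside the band, with the alpha entry at 1.11 in Ring1A+B-DKO closest to its edge at 1.15.

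The sizes of these values were read against genes with the same kind of evidence. In the authors' deposited table, 2259 genes had reads in Ring1A+B-DKO and none in E14-WT, with 205 different fold changes from 0.15 to 3.70 and a median of 0.20. Pcdhb20 had the smallest of the 205, which it shared with 603 of these genes. Pcdhb2 had the second smallest, shared by 329 genes including itself. Pcdhb22 had the tenth smallest, and 30.2% of the 2259 genes had a larger value. The alpha entry stood apart from the beta genes, with 142 of the 2259 genes, or 6.29%, above it. The authors called 51 of the 2259, and the smallest value called among them was 1.65.

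**Figure D3:**
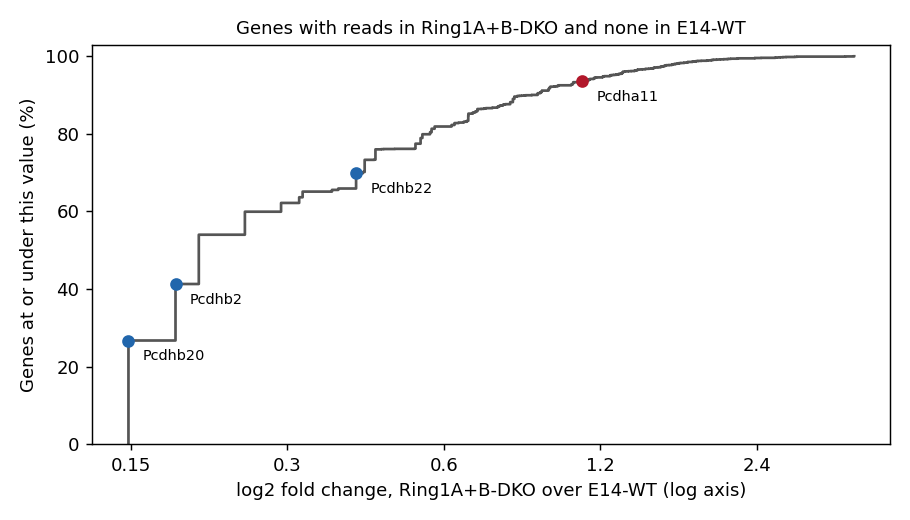
Cumulative share (%) of the 2259 genes with reads in Ring1A+B-DKO and none in E14-WT by log2 fold change (log axis), with the 4 clustered protocadherins among them marked. Pcdhb20 and Pcdhb2 sit on the lowest steps at 0.15 and 0.18, Pcdhb22 at 0.41 and the alpha entry at 1.11.

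The other groups were read in the same way. Pcdhb5 and Pcdhb13 had the smallest of 47 sizes among 1170 genes with reads in Ezh2-WT and none in E14-WT, shared by 402 genes of the authors' deposited table. Pcdhb2 had the second smallest of 34 among 1064 genes with reads in Suz12-KO and none in E14-WT. The alpha entry, at 0.11 beside a median of 0.085, stood higher among the 922 genes with reads in Ezh2-KO and none in Ezh2-WT, with 71.1% of them below it and 14.1% above. In that set the authors called 0 genes, and the largest value was 0.54.

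Missing values were more common in the beta cluster than in several other sets of genes, given here as counts without a test. Against 16 of 22 beta genes (72.7%), 5361 of 21173 protein-coding genes (25.3%) had no value in any comparison of the authors' deposited table. Among 11596 protein-coding genes with exon lengths in the range of the beta genes the share was 15.8%. Among 1305 protein-coding genes with 1 block of exon sequence, the form of the beta genes, it was 55.7%, at a median exon length of 1221 bases against 3714 for the beta genes. Of 27 other cadherins, the non-clustered protocadherins among them, 7 (25.9%) had no value, and of 14 neuronal marker genes 3 (21.4%). The 18 genes listed around the locus all had a value in at least 1 comparison.

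**Figure D4:**
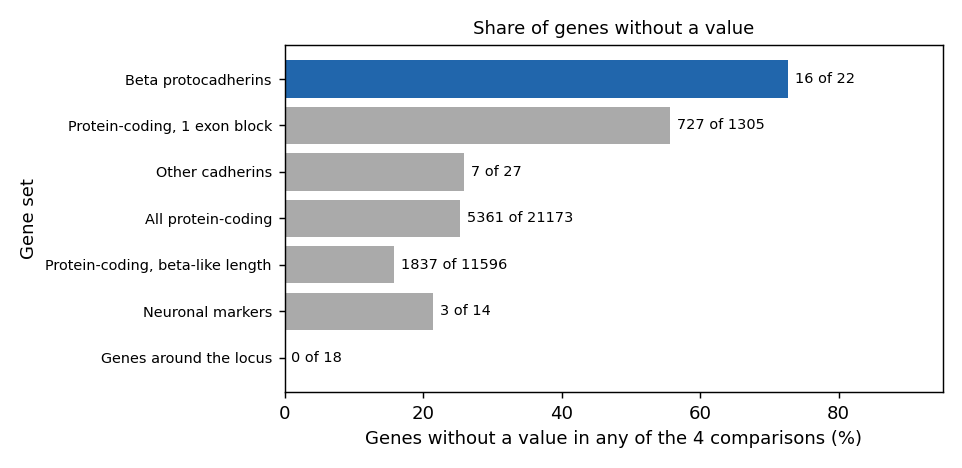
Share of genes (%) without a value in any of the 4 comparisons, for the beta protocadherins and 6 other sets of genes, with the counts beside the bars. The beta protocadherins have the longest bar, at 72.7%, followed by protein-coding genes with 1 exon block at 55.7%.

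Similar sequence among the beta genes could cost them reads, since stretches found in several genes cannot be assigned to 1 of them. In GENCODE transcripts, a median of 4.48% of the stretches of 50 bases in a beta gene also stood in a transcript of another gene, on either strand. The share was under 20% in 21 of the 22 and 64.2% in Pcdhb12, whose exon overlaps the minus-strand gene model Gm37446. Of the 1917 shared stretches of Pcdhb12, 1878 stood in Gm37446. An overlap of this kind is 1 place in the genome under several gene models, so this share need not measure lost reads. Pcdhb1, with no value in any comparison, shared 0 of its 2539 stretches. Among the beta genes with a value the share ran from 1.80% in Pcdhb13 to 8.58% in Pcdhb22. Pcdhb21 and Pcdhb22 overlap each other by 455 bases. The share was 60.1% in the alpha entry and 37.1% in Pcdhgc4, whose constant exons stand in the other isoforms. Those isoforms have no row of their own in the authors' deposited table, and the constant exons of a cluster are 1 place in the genome. These shares therefore need not measure lost reads either. How the authors treated reads with several positions is not given, and the part of this in the missing values was not tested.

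Genes around the locus did not share one direction. Of 18 listed neighbours, 0 were called in Ezh2-KO, Suz12-KO or Ezh2-WT, beside 0.177%, 0.200% and 0.607% of all genes. The share called as higher in Ring1A+B-DKO was 2.38% over all genes. Among the 18 neighbours, the authors' deposited table has 2 that rose there. These were Arap3 (37972628 to 37998969), a GTPase-activating protein gene beyond the gamma cluster, at 1.70, and the vault RNA gene Vaultrc5, the listed neighbour before the alpha cluster, at 1.28. Vaultrc5 is uncertain, because the RNA preparation removed small RNA. The neighbours' median in Ring1A+B-DKO was -0.04, with Wdr55 lowest at -0.79. In Ezh2-KO they ran from -0.57 for the formin gene Diaph1 to 0.37 for Zmat2. In Suz12-KO they ran from -0.45 for the germ cell gene Dnd1 to 0.63 for Vaultrc5. In Ezh2-WT they ran from -0.44 for Taf7, a subunit of the general transcription factor TFIID, to 0.63 for Tmco6.

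**Figure D5:**
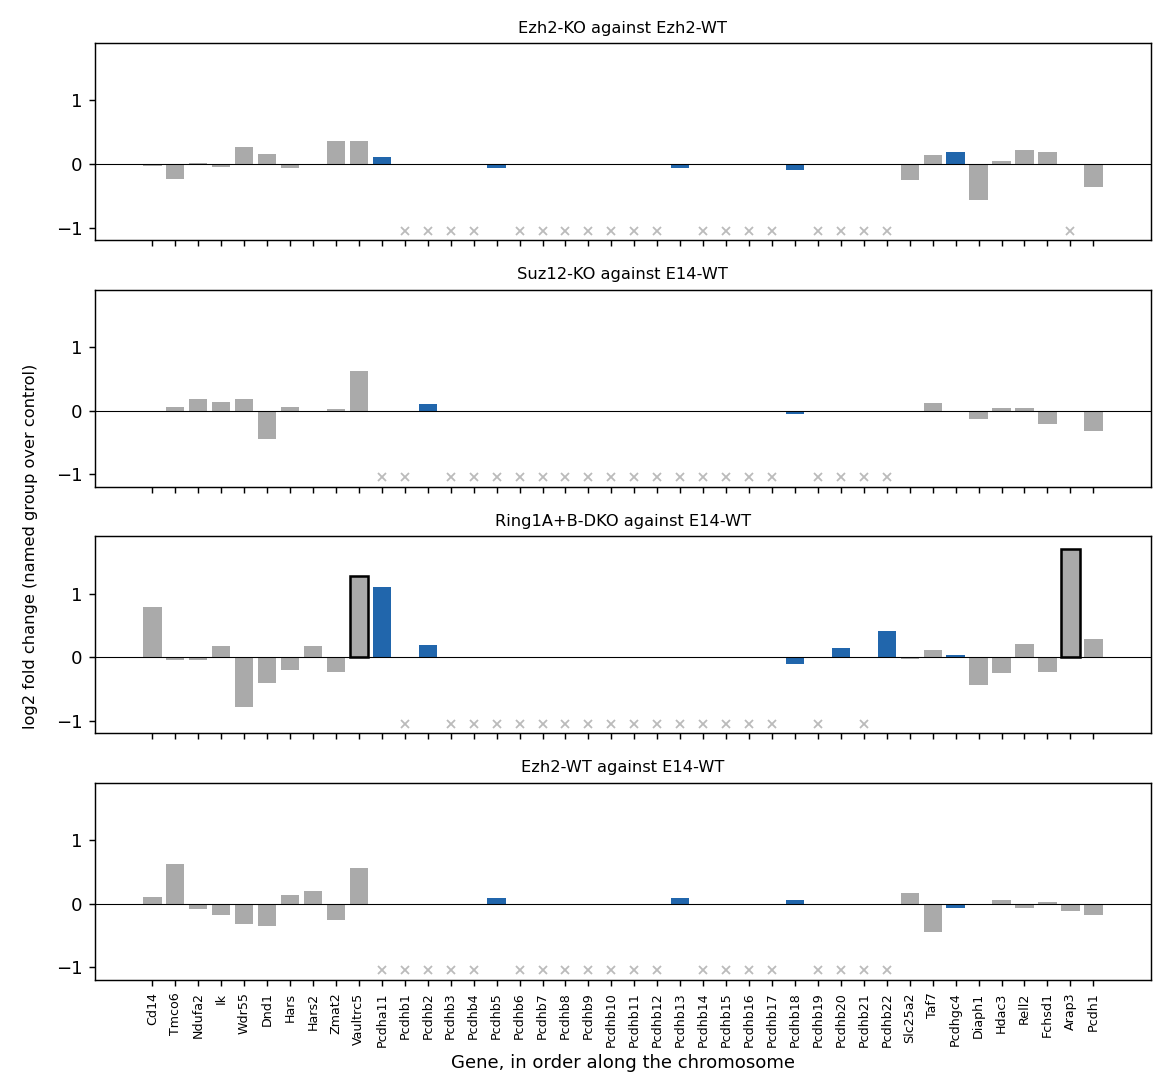
Log2 fold change (named group over control) of clustered protocadherins (blue) and listed neighbours (grey) in their order along the chromosome, 1 panel per comparison, with black outlines for genes the authors called and crosses for genes without a value. Crosses fill most of the beta cluster in each panel, and only Vaultrc5 and Arap3, in Ring1A+B-DKO, are outlined.

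Other cadherins gave called increases in Ring1A+B-DKO. Of 27 listed, 19 had a value there, 3 rose and 0 fell in the authors' deposited table, beside 2.38% of all genes called as higher. They were the giant cadherin Dchs1, a partner of Fat4 in planar polarity, at 1.97, the placental cadherin Cdh3 at 1.83 and the seven-pass cadherin Celsr2 at 1.49. The median of the 19 was 0.41, and Celsr3 was lowest at -0.41. The list had 0 calls in Ezh2-KO (14 values, from -0.37 for Pcdh19 to 0.13 for Celsr3), in Suz12-KO (14 values, from -0.76 for Cdh3 to 0.26 for Pcdh19) and in Ezh2-WT (15 values, from -0.66 for Cdh3 to 0.61 for Cdh11). The non-clustered Pcdh1, further along the same chromosome, was called in no comparison and stood at 0.29 in Ring1A+B-DKO. Whether the clustered members differ from these cadherins was not tested.

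All 27 listed regulators of protocadherin promoters and chromosome loops had a value in each comparison. None was called in Ezh2-KO or Suz12-KO in the authors' deposited table, with 0 of 27 each. Of all genes, 122 of 19693 were called as lower in Ring1A+B-DKO and 46 of 18604 in Ezh2-WT. In Ring1A+B-DKO 1 of the 27 listed fell, Uhrf1, which guides maintenance of DNA methylation, at -1.01. In Ezh2-WT 1 of them fell, Dnmt3l, a cofactor of DNA methyltransferases, at -1.56. The extremes in Ezh2-KO were Dnmt3l at 0.82 and the DNA methyltransferase Dnmt3a at -0.70. In Suz12-KO they were the silencing cofactor Trim28 at 0.52 and Dnmt3a at -1.01, and the highest value in Ring1A+B-DKO was that of Tet3, a 5-methylcytosine oxidase, at 0.54. The list median was -0.06 in Ezh2-KO and -0.12 in Suz12-KO, against -0.18 in Ring1A+B-DKO and -0.16 in Ezh2-WT. Further values were chosen after they were seen, for genes known to act on these clusters. In Ring1A+B-DKO, Ctcf stood at -0.28, the chromosomal silencing protein gene Smchd1 at 0.48 and the DNA methyltransferase gene Dnmt3b at 0.12, none of them called.

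Partners through which clustered protocadherins signal, and the enzymes that cleave them, had 1 call among 84 values in the authors' deposited table, 21 genes in each of 4 comparisons. The receptor tyrosine kinase gene Ret rose in Ring1A+B-DKO, at 1.76, beside 2.38% of all genes called as higher there. Among the 21 listed genes, Wasf1 was lowest there at -0.51. In Ezh2-KO the list ran from -1.08 for Cyfip2, of the WAVE actin complex, to 0.39 for Ptk2, the focal adhesion kinase. In Suz12-KO it ran from -0.58 for Prkca to 0.32 for Abi2, and in Ezh2-WT from -0.41 for Axin1 to 0.99 for the presenilin gene Psen2. Its median was -0.07 in Ezh2-KO and -0.02 in Suz12-KO, against 0.09 in Ring1A+B-DKO and -0.03 in Ezh2-WT.

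Marker genes were read for the cells that the cultures could hold. All 10 stem cell markers had a value in each comparison. Of these, 0 were called in Ezh2-KO, 1 rose in Suz12-KO, 2 rose in Ring1A+B-DKO and 1 fell in Ezh2-WT. In Ring1A+B-DKO the log2 fold changes of the 10 ran from -0.62 to 4.19, with a median of only 0.01. Among all genes, 16 of 18498 were called as higher in Suz12-KO and 46 of 18604 as lower in Ezh2-WT. Of 14 neuronal markers 0 rose in any comparison in the authors' deposited table. In Ring1A+B-DKO 10 had a value, 5 above 0 and 5 below, with a median of -0.006. Of these 3 fell, beside 122 of 19693 among all genes, namely Tubb3 at -2.10, the lowest, Stmn2 and Ncam1. Elavl4 was highest at 0.50, while Syt1, Dcx and Snap25 had no value in any comparison. Endoderm markers rose in 4 of 8 in Ring1A+B-DKO, with a median of 1.42, and fibroblast markers in 2 of 12, with a median of 0.46 over the 10 with a value. Of all genes, 2.38% were called as higher in Ring1A+B-DKO. The part of other cell types in the values of the alpha entry and of Pcdhb2, Pcdhb20 and Pcdhb22 in Ring1A+B-DKO was not tested.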

How the data were processed

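The authors used TopHat, featureCounts and DESeq2 with GRCm38 (mm10), per the submitters' processing notes; versions, settings, filters and strand use are not given there. The deposited table gives log2 fold changes with Ensembl release 72 identifiers, per the file headers. Beside each stands a true or false call by the authors, another kind of value whose criteria are not given. Each called gene has a size above 1. No test of replicates could be made from such values, so the call stands in its place, and depth is unknown.

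Symbols, coordinates and exons came from GENCODE mouse release 21 (GRCm38), which matched 36602 of 38355 identifiers (95.4%). Column directions were read from missing values, taken as no reads in either group. Genes with reads in the named group and none in its control were positive in 922 of 922 cases in Ezh2-KO, and negative in 1064 of 1064, 2259 of 2259 and 1170 of 1170 cases in Suz12-KO, Ring1A+B-DKO and Ezh2-WT. The signs of those 3 columns, opposite to their headers, were turned. Of 16 patterns of missing values 13 were seen, and the 3 that this reading forbids held 0 genes. The rules were run on simulated counts in which a value was missing only where both groups had no reads. That run could not test whether this holds for the deposited values.

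Members and gene lists were chosen with earlier results of these data known. Named were all members with a value and, of each list, called genes and extremes, except for the stem cell, endoderm and fibroblast markers. Promoters and protein sequences of the members were not analysed here. Computations used Python 3.11.15, numpy 2.4.6, pandas 2.3.3 and matplotlib 3.10.9.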

Additional observations from a re-analysis of the deposited data

How the results depend on the processing

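Counts of called members were 0 in each comparison. With a size of at least 1, or of at least 0.5, in place of the call, the count became 1 in Ring1A+B-DKO and stayed 0 in the other 3. The members' medians were small, and with 1 to 6 values each their sign depended on the choice. With the mean, the medians of Ezh2-KO (-0.07) and Suz12-KO (-0.01) became 0.012 and 0.0084, and that of Ring1A+B-DKO (0.17) became 0.29, which rests on the alpha entry. With values that no other gene shares, which leaves Pcdhgc4 alone, they were 0.19 in Ezh2-KO, 0.031 in Ring1A+B-DKO and -0.062 in Ezh2-WT. With members that had reads in E14-WT, Ring1A+B-DKO stood at -0.041 over all members and -0.11 over the beta cluster, and the beta cluster in Suz12-KO at -0.057. That choice leans towards values below 0, because reads in E14-WT were inferred from such values. After subtraction of the median of all genes, Suz12-KO stood at 0.013 over all members, which is the value of Pcdhgc4, and Pcdhgc4 in Ring1A+B-DKO at -0.037. With members without a value read as 0, an alternative chosen after seeing the data, the medians of all members and of the beta cluster were 0 in all 4 comparisons. With the direction in the headers, the 3 comparisons with E14-WT had the opposite sign. All members then stood at 0.013, -0.17 and -0.078 in Suz12-KO, Ring1A+B-DKO and Ezh2-WT, the beta cluster at -0.019, -0.17 and -0.093, Pcdhgc4 at 0.013, -0.031 and 0.062, and the alpha entry at -1.11 in Ring1A+B-DKO. The other 72 of 104 alternative values kept the count, or kept the direction and moved by at most 0.1. All 24 members overlap another annotated gene by their span, so that planned exclusion left none. By exons, 0 of the 24 overlap a gene of the table outside the clusters. No paired analysis was possible because the table holds no values per sample. Leaving out replicates and other count models were not run for the same reason. Depth is unknown, so genes without reads may be expressed below detection.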

Other observations

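By distance over the 4 log2 fold changes to the members' medians, the nearest of 11474 genes with 4 values of their own were Ttc17 (0.072), Fam76b (0.076), Hnrnph3 (0.079), Rab10 (0.080) and Gm22685 (0.083). These medians lie near 0 and rest on 3 to 6 members each, so the likeness is to genes that hardly differed between groups.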
